A study of Homo sapiens with 12 samples.

Results

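The Mediator is the multi-subunit coactivator that carries signals from DNA-bound transcription factors to RNA polymerase II, and the mRNAs of its 32 subunit genes were examined in U2OS cells, a human osteosarcoma line. The members were taken as a fixed list of gene symbols with no filter on their values, though with earlier results of these data known. All 32 were found among the 22379 genes of the table. They comprised 11 head genes (MED6, MED8, MED11, MED17, MED18, MED20, MED22, MED27, MED28, MED29 and MED30), 9 middle genes (MED1, MED4, MED7, MED9, MED10, MED19, MED21, MED26 and MED31), the scaffold gene MED14, 5 tail genes (MED15, MED16, MED23, MED24 and MED25) and 6 kinase module genes (MED12, MED13, MED13L, CDK8, CDK19 and CCNC). Structural accounts differ on whether MED27 to MED30 belong to head or tail, so module medians and shares were also taken with these 4 genes in the tail. Rows that were identical in every library to a row under another Ensembl identifier were found for MED18 and MED22, and their values are therefore uncertain.

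Polyadenylated RNA had been sequenced from 12 libraries, 2 for each of 6 groups. Cells had received a plasmid with Cas9 and a nontargeting guide (NONT), a guide against NUP93 (NUP93-KO), a component of the nuclear pore, or a guide against EXOSC5 (EXOSC5-KO), a subunit of the RNA exosome, which degrades RNA from the 3′ end. Each genotype was left untreated, with DMSO as the vehicle in the labels, or was given 1 μM triptolide for 8 h. Triptolide inhibits XPB, the helicase of the initiation factor TFIIH, and so blocks the start of new mRNA. The mRNA that is left is taken to reflect decay, which was not itself measured in these libraries. The paper reports that U2OS cells begin to die within hours of this dose, so treated libraries may include dying cells. The knockouts were puromycin-selected pools after transient transfection and not clones, and the study's methods give the NUP93 and EXOSC5 pools shorter selection and expansion than the other pools made this way, among which NONT is listed. The labels do not say whether replicates came from separate cultures, so p-values measure the spread between these libraries, which may be technical.

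In the assembled complex the head and middle contact the polymerase, MED14 runs through both as a backbone, the tail receives many activators, and the kinase module docks reversibly and hinders polymerase binding while it is attached. CDK8 and CDK19 are alternative kinases of that module, cyclin C (CCNC) is their partner, MED12 activates the kinase, and MED13 or MED13L tethers the module to the rest of the complex.

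Values are the deposited gene signal, scaled by ERCC spike-in RNA that was matched to counted cells, and so are meant to follow mRNA per cell. They average over all cells lysed, and fewer cells with an mRNA and less of it per cell cannot be told apart. Approximate depth was 8.60 to 11.96 M reads per library. The targeted genes were lower in their own untreated pools without passing the threshold, with log2 differences from NONT of −0.56 ± 0.20 (adjusted p = 0.926) for NUP93 and −1.08 ± 0.29 (adjusted p = 0.151) for EXOSC5. Of the 7 mesenchymal markers 6 averaged at least 10 without drug, while TWIST1 was listed at 0 in every library. Of the 3 epithelial markers 2, EPCAM and CDH1, averaged at least 10 without drug as well. The highest untreated value of the mesenchymal marker COL1A2 lay below the highest of either. The leukocyte, erythroid and endothelial marker lists each summed to at most 9.99 in any library, and the epithelial list to at most 117 against at least 47598 for the mesenchymal one. The untreated NONT libraries differed from each other by a median of 0.51 on the log2 scale over all genes, replicate 1 being the lower, and this offset enters every contrast that uses them.

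Without drug, all 32 genes were expressed, over a wide range of levels. Levels were compared between genes as value per kilobase of the canonical transcript. Which isoforms were expressed was not examined. Other lengths would change the order of genes and the ratios and shares per kilobase given below. MED15, a tail subunit bound by activators, was highest in NONT at 523 and 766 in the 2 libraries, and MED27 of the head followed at 516 and 602. MED8, MED10, CCNC and MED6 came next, and each of these neighbours overlapped the next in its replicates. The lowest was MED26, through which the Mediator recruits elongation factors, at 29.3 and 46.5. Just above it stood MED12 at 33.6 and 50.9 and CDK19 at 36.8 and 51.3, and these 3 genes overlapped in their replicates. CDK8 was at 137 and 179 per kilobase, so that in NONT the libraries of the paralogues CDK8 and CDK19 did not overlap.

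After triptolide every member was lower in NONT. The limma model over 13811 genes called 32 of 32 members lower at an adjusted p under 0.05, but 90.0% of all genes tested were also called lower in NONT. In NUP93-KO 27 members fell, where 55.1% of all genes did, and in EXOSC5-KO 28 members fell, where 64.3% did. The members not called were MED11, MED14, MED24, MED25 and MED28 for NUP93-KO and CDK19, MED11, MED24 and MED28 for EXOSC5-KO. In all 3 genotypes 26 members were called, as were 50.6% of all genes. No member was called higher on this scale.

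The summed value of the 32 mRNAs was 19061 and 27668 in untreated NONT and 5611 and 5149 after triptolide. In NUP93-KO the sums were 19577 and 21318 before and 7515 and 7707 after the drug, and in EXOSC5-KO they were 24936 and 22713 before and 8079 and 7732 after it. Treated and untreated sums did not overlap in any genotype, and the treated sums of both knockouts lay above those of NONT. The same held for the sum over all genes, so neither is particular to the Mediator. That sum was 5.94 and 4.90 M in treated NONT, 8.22 and 8.79 M in treated NUP93-KO and 8.01 and 8.03 M in treated EXOSC5-KO. Untreated libraries ran from 11.3 to 16.4 M.

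The median member had a log2 fold change of −2.18 for NONT, against −1.62 for the median gene, −1.41 against −0.92 for NUP93-KO and −1.75 against −1.08 for EXOSC5-KO. Fold changes are on the log2(value + 1) scale, which understates the change of low genes. Over the 4 pairings of single treated and untreated libraries the gap between median member and median gene ran from −0.77 to −0.46 for NONT. It ran from −0.72 to −0.51 for NUP93-KO and from −0.73 to −0.67 for EXOSC5-KO. The median was retaken in each pairing, and the range does not bracket the fitted NUP93-KO gap of −0.49. Nor does the NUP93-KO range of the median member, −1.53 to −1.46, bracket −1.41. As a share of the untreated mean, the median member kept 21.6% for NONT, 37.4% for NUP93-KO and 29.4% for EXOSC5-KO. Over all genes with a value these medians were 31.4%, 52.5% and 47.2%. Both triptolide values lay below both untreated values for 32 members in NONT, 32 for NUP93-KO and 31 for EXOSC5-KO, and the same held for 94.8%, 79.1% and 88.0% of all genes.

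**Figure D1:**
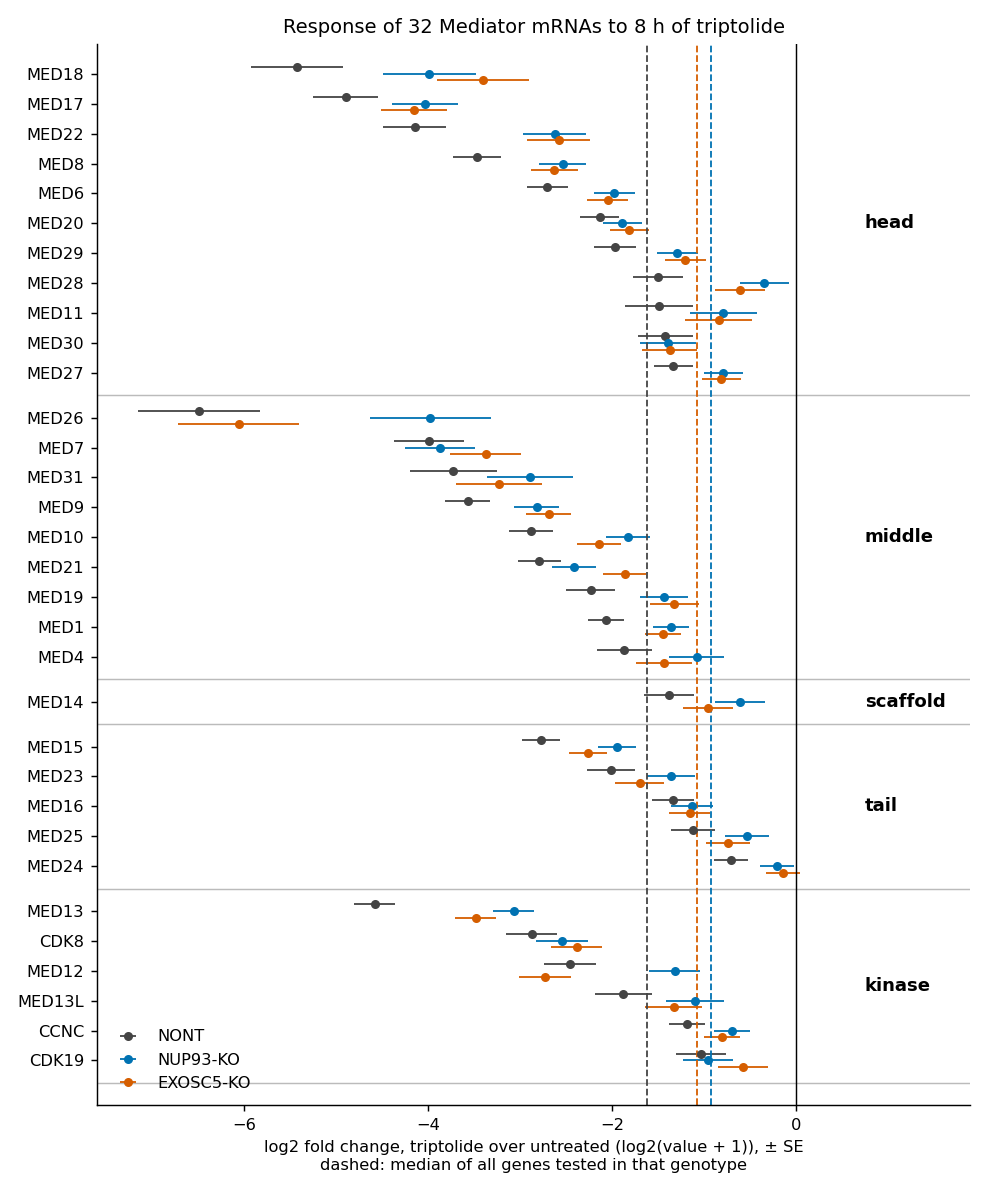
Log2 fold change of each Mediator mRNA after triptolide (x axis, log2(value + 1) scale, ± SE) for NONT, NUP93-KO and EXOSC5-KO, by module (y axis). Dashed lines mark the median of all 13811 genes, −1.62 for NONT, −0.92 for NUP93-KO and −1.08 for EXOSC5-KO, and all 9 middle genes lie to the left of the line of their genotype.

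With MED27 to MED30 counted in the head, the middle module had the lowest median of the modules in each genotype, at −2.88 for NONT, −2.41 for NUP93-KO and −2.14 for EXOSC5-KO, and 9 of 9 middle genes lay below the median gene each time. The head stood at −2.13, −1.89 and −1.81, with 7, 8 and 8 of 11 genes below the median gene. The kinase module stood at −2.16, −1.21 and −1.85, with 4, 5 and 4 of 6 genes below it. The tail stood at −1.34, −1.13 and −1.15, with 2, 3 and 3 of 5 genes below it, and MED14 was above the median gene in each genotype. These counts and medians describe the list, since members are not replicates. With MED27 to MED30 counted in the tail this order turned. The head median then became −3.47 for NONT, −2.53 for NUP93-KO and −2.58 for EXOSC5-KO, below the middle in each, and the tail median −1.42, −1.13 and −1.15.

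**Figure D2:**
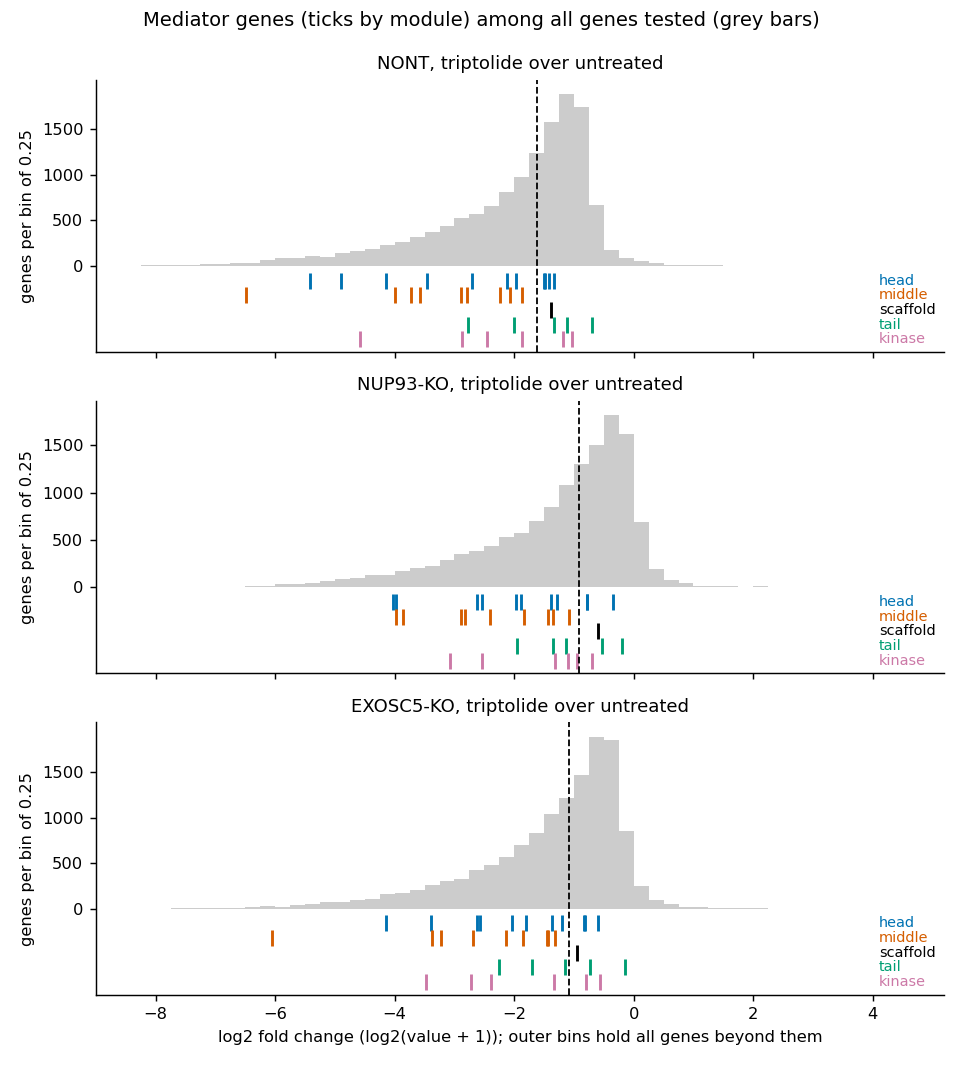
Distribution of log2 fold changes after triptolide over the 13811 genes tested (grey bars, genes per bin) in each genotype, with the members of each module as coloured ticks below and the median gene as a dashed line. The middle ticks lie left of the dashed line in all 3 panels, while tail and kinase ticks lie on both sides.

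The head module ranged from deep loss to near the median gene. MED17, a large subunit at the core of the head (ENSG00000042429, chr11:93784227-93814963, plus strand, 12 exons, GRCh38), was at 326 and 476 for NONT, 355 and 384 for NUP93-KO and 421 and 348 for EXOSC5-KO without drug. After triptolide MED17 was at 16 and 9.38 for NONT, 17.4 and 27.1 for NUP93-KO and 20.2 and 21.0 for EXOSC5-KO, so that no treated library came near an untreated one. It fell, with log2 fold changes of −4.90 ± 0.36 (adjusted p = 3.79e-09) for NONT, −4.03 ± 0.36 (adjusted p = 9.47e-08) for NUP93-KO and −4.15 ± 0.36 (adjusted p = 6.04e-08) for EXOSC5-KO, and kept 3.16%, 6.01% and 5.36% of its untreated mean. Among all genes this placed MED17 at percentile 4.94 for NONT, 4.91 for NUP93-KO and 4.55 for EXOSC5-KO, counted from the deepest loss.

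MED18, which with MED8 and MED20 forms a mobile part of the head, had the largest log2 change of the head in NONT. It was at 109.7 and 112 for NONT, 75.9 and 118 for NUP93-KO and 152 and 121 for EXOSC5-KO untreated and at 1.64 and 1.57 for NONT, 6.92 and 3.63 for NUP93-KO and 8.48 and 16.7 for EXOSC5-KO after triptolide. The NONT values correspond to about 3 reads each, so its change of −5.42 ± 0.50 (adjusted p = 5.3e-08) there depends on the pseudocount and became −4.13 with a pseudocount of 5. In the knockouts it changed by −3.98 ± 0.50 (adjusted p = 3.96e-06) for NUP93-KO and −3.40 ± 0.50 (adjusted p = 1.9e-05) for EXOSC5-KO.

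MED27 was the least changed head gene in NONT. It was at 715 and 834 for NONT, 660.4 and 933 for NUP93-KO and 927 and 833 for EXOSC5-KO without drug and at 331 and 284 for NONT, 427 and 481 for NUP93-KO and 491 and 510.4 for EXOSC5-KO after it. The fold changes were −1.33 ± 0.21 (adjusted p = 2.5e-05) for NONT, −0.79 ± 0.21 (adjusted p = 0.00448) for NUP93-KO and −0.81 ± 0.21 (adjusted p = 0.00324) for EXOSC5-KO. MED27 thus kept 39.7% of its mean in NONT and 57.0% and 56.9% in the knockouts, and it fell in each.

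The other head genes spread between these. MED22 (log2 fold change −4.14 for NONT), MED8 (−3.47), MED6 (−2.70), MED20 (−2.13) and MED29 (−1.97) lay below the median gene in NONT and fell in all 3 genotypes. In the knockouts these 5 genes ranged from −2.63 to −1.20. MED20 kept 22.6%, 26.9% and 28.3% of its untreated mean over the 3 genotypes and MED8, its partner, 8.73%, 17.1% and 16%. MED30 fell by about the same amount in each, with −1.42 for NONT, −1.39 for NUP93-KO and −1.37 for EXOSC5-KO. MED11 and MED28 fell in NONT (−1.49 and −1.50) but not past the threshold in the knockouts, where MED28 changed by −0.34 ± 0.27 (adjusted p = 0.301) for NUP93-KO and −0.61 ± 0.27 (adjusted p = 0.0577) for EXOSC5-KO. MED11 changed by −0.79 ± 0.37 (adjusted p = 0.0795) and −0.84 ± 0.37 (adjusted p = 0.0545) there.

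In the middle module all 9 genes fell in all 3 genotypes, where 50.6% of all genes did. MED26 had the largest log2 change of all members in NONT (ENSG00000105085, chr19:16574907-16629062, minus strand, 3 exons, GRCh38). Its values were 92.8 and 148 for NONT, 107 and 150.2 for NUP93-KO and 146 and 113 for EXOSC5-KO untreated and 0 and 0.728 for NONT, 4.49 and 11.1 for NUP93-KO and 2.79 and 0 for EXOSC5-KO after triptolide. At most 1.49 reads per library underlay the treated NONT values, and 3 reads would be worth 1.81 and 1.47, or 1.36% of the untreated mean. The log2 fold change of −6.49 ± 0.66 (adjusted p = 1.64e-07) became −7.23 with a pseudocount of 0.5 and −4.51 with 5. In NUP93-KO, where both libraries held MED26 reads, it changed by −3.97 ± 0.66 (adjusted p = 7.15e-05), and in EXOSC5-KO by −6.05 ± 0.66 (adjusted p = 7.36e-07). The latter rested on 2.99 reads in one treated library and 0 in the other, and became −6.65 with a pseudocount of 0.5 and −4.42 with 5.

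MED1, the subunit that binds nuclear receptors, lost less. It was at 1312 and 1749.6 for NONT, 1211 and 1367 for NUP93-KO and 1796 and 1669 for EXOSC5-KO before and at 387 and 338 for NONT, 517 and 487 for NUP93-KO and 692 and 585 for EXOSC5-KO after triptolide. Its fold changes were −2.06 ± 0.20 (adjusted p = 8.33e-08) for NONT, −1.36 ± 0.20 (adjusted p = 1.92e-05) for NUP93-KO and −1.44 ± 0.20 (adjusted p = 8.96e-06) for EXOSC5-KO, so MED1 fell in each genotype and kept 23.7%, 38.9% and 36.9%.

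MED4 was the least changed middle gene in NONT, with values of 245 and 402 for NONT, 246 and 321 for NUP93-KO and 329 and 307 for EXOSC5-KO before and 92 and 79.6 for NONT, 129.6 and 135 for NUP93-KO and 92.5 and 148 for EXOSC5-KO after the drug. The changes were −1.86 ± 0.30 (adjusted p = 2.86e-05) for NONT, −1.08 ± 0.30 (adjusted p = 0.00583) for NUP93-KO and −1.43 ± 0.30 (adjusted p = 0.000575) for EXOSC5-KO. Even this gene lay below the median gene in each genotype, by 0.24, 0.16 and 0.36 on the log2 scale.

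Of the remaining middle genes, MED7 and MED21, which form a hinge between the parts of the module, changed by −3.99 and −2.79 for NONT. MED31 (−3.72), MED9 (−3.57), MED10 (−2.88) and MED19 (−2.23) fell as well. In the knockouts the 6 genes ranged from −3.87 to −1.32. MED7 kept 5.97% for NONT, 6.30% for NUP93-KO and 9.17% for EXOSC5-KO, and MED31 kept 7.02%, 12.5% and 10.1%.

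MED14, the backbone that joins head, middle and tail, stood at 995 and 1858 for NONT, 1062 and 867 for NUP93-KO and 1334 and 859.6 for EXOSC5-KO without drug and at 496 and 549 for NONT, 575 and 691 for NUP93-KO and 588 and 519 for EXOSC5-KO after it. The 2 untreated NONT libraries differed widely for this gene. MED14 fell in NONT (−1.38 ± 0.27, adjusted p = 0.000181) and EXOSC5-KO (−0.95 ± 0.27, adjusted p = 0.00559), and its change in NUP93-KO was −0.61 ± 0.27 (adjusted p = 0.0677).

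The tail held the member that kept the most mRNA in each genotype. MED24 (ENSG00000008838, chr17:40019097-40061215, minus strand, 26 exons, GRCh38) was at 924 and 1005 for NONT, 899.8 and 861 for NUP93-KO and 1014 and 842 for EXOSC5-KO untreated and at 597 and 586 for NONT, 741 and 789 for NUP93-KO and 867 and 812 for EXOSC5-KO after triptolide. It fell in NONT (−0.70 ± 0.18, adjusted p = 0.00184), with no overlap between its libraries, but its changes of −0.20 ± 0.18 (adjusted p = 0.365) for NUP93-KO and −0.14 ± 0.18 (adjusted p = 0.496) for EXOSC5-KO did not pass the threshold. In EXOSC5-KO the treated and untreated libraries overlapped. MED24 kept 61.3%, 86.9% and 90.4% of its untreated mean and lay at percentiles 93.6, 83.2 and 94.0 of all genes, counted from the deepest loss.

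MED15 went the other way within the tail, and was its most changed gene in NONT. Its values were 1752 and 2568 for NONT, 1696 and 1993 for NUP93-KO and 2303 and 1929 for EXOSC5-KO before and 329 and 293 for NONT, 493 and 459.7 for NUP93-KO and 432 and 447 for EXOSC5-KO after the drug, with wide gaps in all genotypes. The fold changes were −2.77 ± 0.21 (adjusted p = 5.2e-09) for NONT, −1.95 ± 0.21 (adjusted p = 6.73e-07) for NUP93-KO and −2.26 ± 0.21 (adjusted p = 1.19e-07) for EXOSC5-KO. MED23 (−2.01, −1.36 and −1.70 for NONT, NUP93-KO and EXOSC5-KO) and MED16 (−1.34, −1.13 and −1.15) fell in all 3 genotypes. MED25, which binds viral and cellular activators, fell in NONT (−1.11 ± 0.24, adjusted p = 0.000402) and EXOSC5-KO (−0.74 ± 0.24, adjusted p = 0.0128), and changed by −0.53 ± 0.24 (adjusted p = 0.0695) for NUP93-KO.

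**Figure D3:**
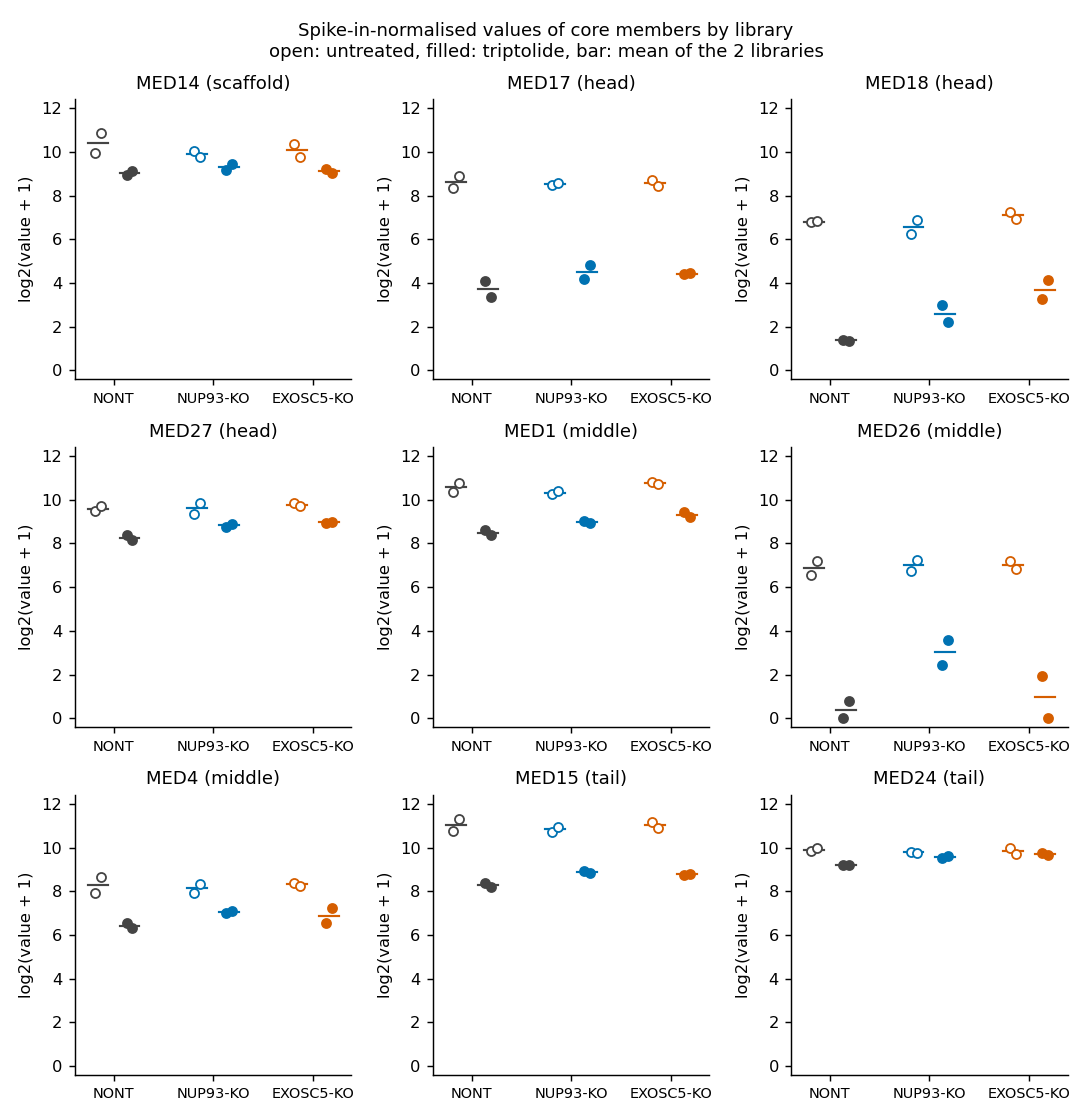
Values by library (y axis, log2(value + 1)) of MED14 and of the head, middle and tail genes described above, in the 3 genotypes (x axis). Open points are untreated libraries, filled points triptolide libraries and bars the mean of 2. MED17, MED18 and MED26 drop furthest of the genes shown, MED26 to near the bottom of the scale in NONT, whereas the MED24 points drop in NONT and stay near their untreated level in the knockouts.

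The kinase module held 2 pairs of paralogues whose members lost unequal parts of their mRNA. MED13 (ENSG00000108510, chr17:61942605-62065278, minus strand, 30 exons, GRCh38) was at 2091 and 3184 for NONT, 2024 and 2018 for NUP93-KO and 2869.9 and 2962 for EXOSC5-KO untreated and at 94.7 and 121 for NONT, 271 and 213 for NUP93-KO and 248 and 274 for EXOSC5-KO after triptolide. MED13L (ENSG00000123066, chr12:115957905-116277693, minus strand, 31 exons) was at 808 and 1623 for NONT, 962 and 723 for NUP93-KO and 1299 and 1294 for EXOSC5-KO and then at 289.8 and 335 for NONT, 498 and 305 for NUP93-KO and 653 and 408 for EXOSC5-KO. Treated and untreated libraries did not overlap for either gene, and the gap was the wider one for MED13.

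The log2 fold changes of MED13 were −4.58 ± 0.22 (adjusted p = 8.06e-11) for NONT, −3.07 ± 0.22 (adjusted p = 1.41e-08) for NUP93-KO and −3.48 ± 0.22 (adjusted p = 3.67e-09) for EXOSC5-KO, and MED13 kept 4.09%, 12% and 8.94% of its mRNA. MED13L changed by −1.88 ± 0.31 (adjusted p = 3.9e-05) for NONT, −1.09 ± 0.31 (adjusted p = 0.00675) for NUP93-KO and −1.33 ± 0.31 (adjusted p = 0.00146) for EXOSC5-KO, so that both paralogues fell in each genotype. Per kilobase, the ratio of MED13 to MED13L was 1.85 to 2.64 over the 6 untreated libraries and 0.309 to 0.658 over the 6 treated ones, so that MED13 exceeded MED13L in each untreated library and was the lower of the pair in each treated one. The mean log2 ratio fell by 2.28 with triptolide (exact two-sided permutation test within genotypes over 216 arrangements, p = 0.00926, adjusted p = 0.0123 over 8 such measures). This p-value is the smallest the design can give. The shares and ratios tested here and below were chosen after seeing the members' values, so their p-values are no independent support.

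CDK8 (ENSG00000132964, chr13:26254104-26420982, plus strand, 13 exons) was at 419 and 549.6 for NONT, 470.1 and 484 for NUP93-KO and 525 and 362 for EXOSC5-KO without drug and at 75.1 and 55.7 for NONT, 77.6 and 84.6 for NUP93-KO and 72.9 and 94.2 for EXOSC5-KO with it. CDK19 (ENSG00000155111, chr6:110609978-110815958, minus strand, 13 exons) was at 236 and 328 for NONT, 316 and 284 for NUP93-KO and 366 and 298 for EXOSC5-KO and then at 169.6 and 109 for NONT, 148 and 161 for NUP93-KO and 219 and 226 for EXOSC5-KO. The loss was thus larger for CDK8, and neither gene had overlapping libraries. CDK8 fell, with log2 fold changes of −2.87 ± 0.28 (adjusted p = 9.85e-08) for NONT, −2.54 ± 0.28 (adjusted p = 9.21e-07) for NUP93-KO and −2.38 ± 0.28 (adjusted p = 1.65e-06) for EXOSC5-KO. The changes of CDK19 were −1.03 ± 0.27 (adjusted p = 0.00197) for NONT, −0.95 ± 0.27 (adjusted p = 0.00636) for NUP93-KO and −0.57 ± 0.27 (adjusted p = 0.0715) for EXOSC5-KO, and the last did not pass the threshold. The ratio of CDK8 to CDK19 per kilobase ranged over 2.53 to 3.71 without drug and 0.696 to 1.10 with it. The mean change was −1.76 on the log2 scale (exact permutation adjusted p = 0.0123, for a ratio chosen after seeing the values).

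Cyclin C, the partner of both kinases, kept more. CCNC was at 813 and 1084 for NONT, 896 and 1034 for NUP93-KO and 1087 and 1049 for EXOSC5-KO before and at 421 and 405 for NONT, 621 and 568 for NUP93-KO and 599 and 625 for EXOSC5-KO after triptolide. It fell, with log2 fold changes of −1.18 ± 0.19 (adjusted p = 3.55e-05) for NONT, −0.70 ± 0.19 (adjusted p = 0.006) for NUP93-KO and −0.80 ± 0.19 (adjusted p = 0.00187) for EXOSC5-KO. MED12, the activator of the kinase, was at 233 and 352 for NONT, 358 and 381 for NUP93-KO and 514 and 788 for EXOSC5-KO untreated and at 51.6 and 51.4 for NONT, 146 and 149.5 for NUP93-KO and 105 and 86.6 for EXOSC5-KO after triptolide. Its changes were −2.45 ± 0.28 (adjusted p = 6.54e-07) for NONT, −1.32 ± 0.28 (adjusted p = 0.000729) for NUP93-KO and −2.73 ± 0.28 (adjusted p = 3.96e-07) for EXOSC5-KO, so that MED12 fell in each genotype and kept 17.6%, 39.9% and 14.7%. The ratio of MED12 to CCNC per kilobase fell with the drug. Its range over the libraries was 0.0890 to 0.234 before and 0.0381 to 0.0819 after (exact permutation adjusted p = 0.0123). This ratio too was chosen after seeing the values.

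**Figure D4:**
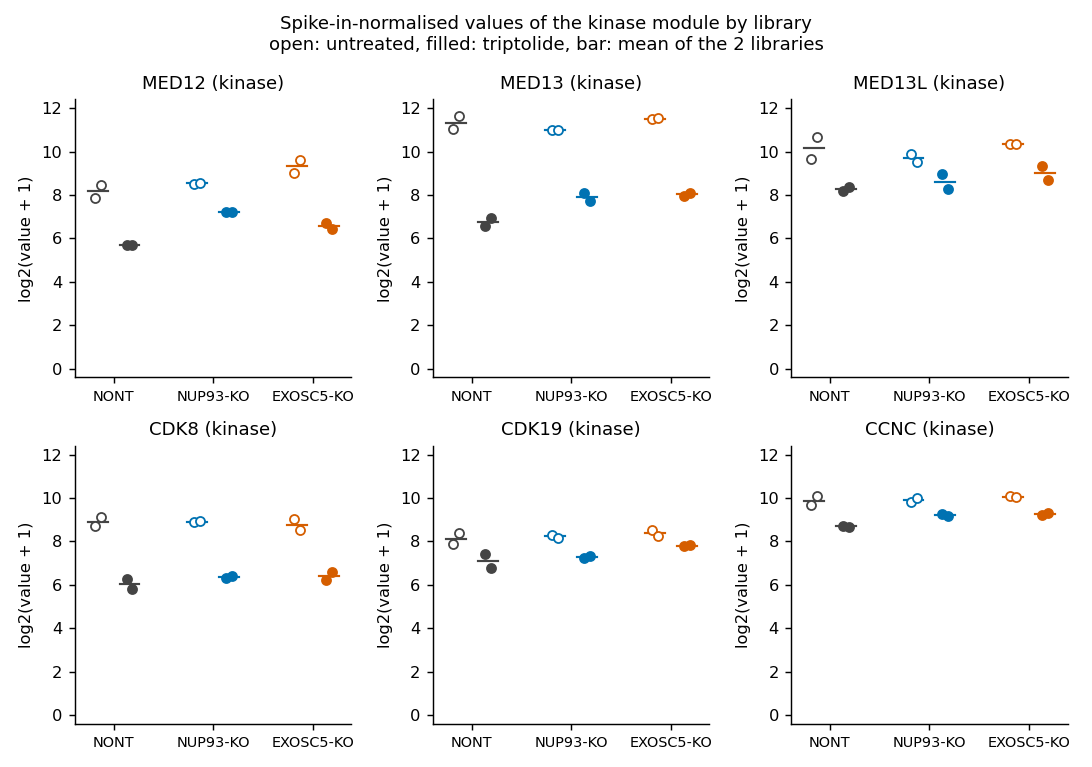
Values by library (y axis, log2(value + 1)) of the 6 kinase module genes in the 3 genotypes (x axis). Open points are untreated libraries, filled points triptolide libraries and bars the mean of 2. MED13 drops further than MED13L and CDK8 further than CDK19 in each genotype.

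Sequence elements known to bind decay factors were looked up in the 3′ UTRs of the canonical GENCODE transcripts of GRCh38 on the transcript's strand, to show what the paralogues share and do not share. The AU-rich nonamer UUAUUUAUU was found in 2 members, MED13 and MED13L. These are 6.25% of members, against 9.82% of 12989 tested genes with a coding canonical transcript. Both genes of this pair carried it, MED13 with 2 copies and MED13L with 1. The sites, all on the minus strand, are given 5′ to 3′ as DNA with the nonamer in capitals, the first 2 being from MED13 at chr17:61946012-61946036 and chr17:61945105-61945129 and the third from MED13L at chr12:115960652-115960676.
MED13 site 1: ctcttctcTTATTTATTgtaagttt
MED13 site 2: tgccttttTTATTTATTtaattttc
MED13L site: cattttgtTTATTTATTttaatttg

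The Pumilio element UGUANAUA was found in 11 members, or 34.4% of members against 30.4% of genes. CDK19 held 3 of these elements in a 3′ UTR of 4557 bases and CDK8, with 1157 bases, held none. The CDK19 sites lie on the minus strand at chr6:110613583-110613606, chr6:110612376-110612399 and chr6:110612036-110612059 and are shown with the element in capitals.
CDK19 site 1: gtgtgtatTGTACATAaagtcggc
CDK19 site 2: atctgttcTGTAAATAatattatg
CDK19 site 3: gttttcctTGTATATAatgacttt

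The pentamer AUUUA, which the nonamer contains, was found in 25 members (78.1%, against 74.0% of genes). MED13, the more reduced of its pair, held 17 copies and MED13L 4. CDK8, the more reduced of the other pair, held 1 and CDK19 12. Whether these counts bear on the loss was not tested. The 7 members with none of the 3 elements were MED16, MED24 and MED25 of the tail, MED11, MED22 and MED27 of the head and MED10 of the middle. In NONT they lay on both sides of the median gene, MED22 (−4.14) and MED10 (−2.88) below it and the others above. Their 3′ UTRs ran from 35 bases in MED25 to 3193 in MED22. A match is a description of these letters and not of binding. Over the 32 members the NONT fold change had a Spearman correlation of −0.20 with 3′ UTR length, 0.04 with transcript length, 0.39 with the number of exons and 0.06 with GC content. Over 12989 genes these were −0.17, −0.19, 0.17 and 0.01. All points of such a correlation come from the same 4 libraries, and it is given as a description.

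The composition of the Mediator mRNA pool shifted with the drug. Composition was taken as the share of each module in the summed level per kilobase of the 32 genes within a library, a quantity that no rescaling of a library can change. The middle module made up 24.7% ± 0.715 (SD, n = 6) of the sum without drug and 17.0% ± 0.886 (SD, n = 6) with it. Its untreated shares ran from 23.7% to 25.5% and its treated shares from 15.8% to 17.7%, with no overlap. The tail rose from 21.6% ± 0.724 to 29.2% ± 1.99 (SD, n = 6 each), again without overlap, and MED14 alone rose from 1.96% ± 0.440 to 3.11% ± 0.553.

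For each of these 3 shares the exact two-sided permutation test within genotypes gave p = 0.00926, the smallest it can give, and an adjusted p of 0.0123 over the 8 measures. The head share fell from 36.9% to 34.6% (exact permutation adjusted p = 0.0212), with overlap in EXOSC5-KO. The kinase share rose from 14.7% to 16.1% (exact permutation adjusted p = 0.0278), with overlap in NUP93-KO. Without CCNC, the most abundant kinase module mRNA per kilobase, the kinase share instead fell by 2.93 percentage points, and the head share fell by 0.689 points without passing the threshold. Without NUP93-KO untreated replicate 2 the rise of the kinase share was 1.18 points and without NUP93-KO triptolide replicate 1 it was 0.954 points, and neither passed the threshold. With MED27 to MED30 counted in the tail, the change was −8.50 points for the head and 13.7 for the tail, against −2.34 and 7.56 as assigned here, so the size of both depends on this disputed placement. Shares of a whole are not independent of each other. These shares were also chosen after seeing the members' values, so their tests are no independent support. By genotype the middle share changed by −9.53 points in NONT, −7.47 for NUP93-KO and −6.23 for EXOSC5-KO.

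**Figure D5:**
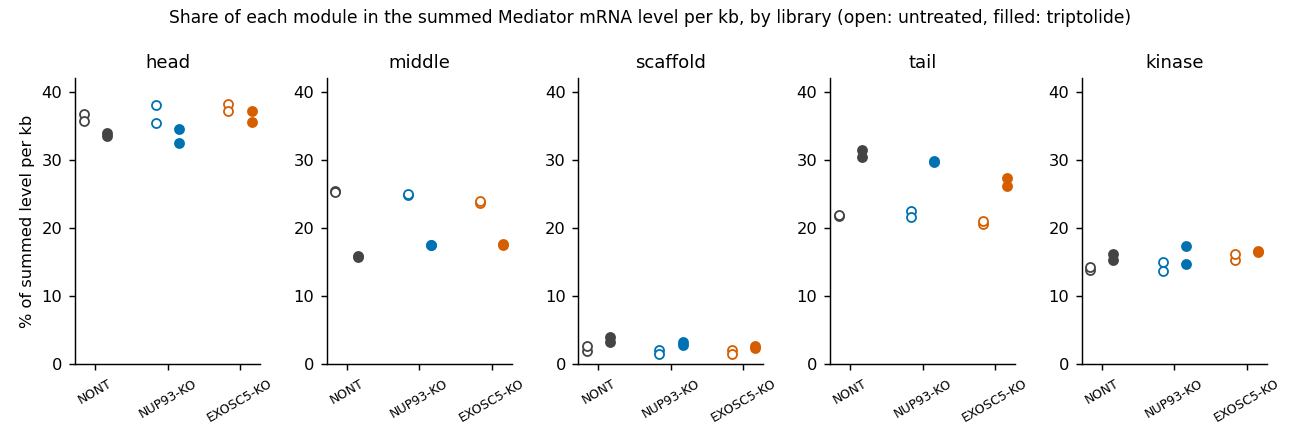
Share of each module in the summed Mediator mRNA level per kilobase (y axis, %) for each of the 12 libraries by genotype (x axis). Open points are untreated and filled points triptolide libraries. The middle share is lower and the tail share higher in every treated library than in every untreated one.

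Which members lost more than the typical mRNA was asked on a second scale, on which each library was rescaled by the median of its ratios to the average library, so that an error in cell count or spike-in volume cancels. In NONT 19 members were called lower on it, where 30.3% of all genes were, and 4 were called higher, where 27.2% were. In NUP93-KO the counts were 18 lower (29.7% of genes) and 3 higher (26.7% of genes), and in EXOSC5-KO 18 lower (28.7% of genes) and 4 higher (26.1% of genes). Lower in all 3 genotypes were 16 members, where 23.1% of all genes were, namely MED6, MED8, MED17, MED18, MED20 and MED22 of the head, MED1, MED7, MED9, MED10, MED21, MED26 and MED31 of the middle, MED15 of the tail and MED13 and CDK8 of the kinase module. MED24 and MED25 were higher than the typical mRNA in all 3, where 20.2% of genes were, with MED24 at 0.95 ± 0.14 (adjusted p = 0.000194) for NONT, 0.70 ± 0.14 (adjusted p = 0.00157) for NUP93-KO and 0.94 ± 0.14 (adjusted p = 0.000236) for EXOSC5-KO. CCNC and CDK19 were called higher in NONT and EXOSC5-KO, and MED28 for NUP93-KO. The 7 members called in no genotype were MED4, MED11, MED13L, MED14, MED16, MED27 and MED30. Leaving out single libraries took the count of higher calls to 1 for NUP93-KO (any of its own 4 libraries) and in EXOSC5-KO (its triptolide replicate 1), and to 2 for EXOSC5-KO without either untreated NUP93-KO library or its own untreated replicate 2. The share of all genes called higher in these fits was 22.2% to 26.0%.

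The order of the members by loss was much alike in the 3 genotypes, which share no library in these contrasts. Spearman's rho between the fold changes of the 32 genes was 0.94 for NONT and NUP93-KO, 0.95 for NONT and EXOSC5-KO and 0.93 for the 2 knockouts. Over all 13811 genes the same coefficients were 0.83, 0.82 and 0.83. MED17, MED18, MED26, MED7 and MED13 were among the 6 deepest and MED24 the shallowest of the members in each genotype. Genes are not independent replicates, and the coefficients are given as a description.

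Without drug, no Mediator gene passed the threshold in either knockout. Against NONT, limma called 0 of 32 members in NUP93-KO, where 0.0217% of all genes were called, and 0 members had an unadjusted p under 0.05, against 4.20% of genes. In EXOSC5-KO 0 members were called, where 0.521% of genes were, and 3 had an unadjusted p under 0.05, against 8.49% of genes. These were MED12 at 1.15 ± 0.28 (adjusted p = 0.108), MED21 at −0.73 ± 0.24 (adjusted p = 0.304) and MED28 at −0.65 ± 0.27 (adjusted p = 0.494). MED12 had read 514 and 788 for EXOSC5-KO against 233 and 352 for NONT without drug, both EXOSC5-KO libraries lying above both NONT libraries, and 358 and 381 for NUP93-KO. MED21 had read 414 and 433 for EXOSC5-KO, below its 618 and 798 for NONT. On the median-of-ratios scale MED12 was called higher (1.05 ± 0.22, adjusted p = 0.0237) and MED21 lower (−0.82 ± 0.16, adjusted p = 0.0172), 2 of 32 members where 5.70% of genes were called. On the spike-in scale MED12 was called higher only without NONT untreated replicate 2 (adjusted p = 0.0342) among the libraries left out in turn.

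The median member's response was shifted against NONT by about as much as the median gene's. In NUP93-KO the median member lost 0.74 less on the log2 scale, and the median gene 0.74 less. In EXOSC5-KO these values were 0.56 and 0.57. Both comparisons share the NONT libraries. The interaction test called 1 of 32 members in NUP93-KO, where 0.775% of genes were called, and 13 had an unadjusted p under 0.05, against 41.6% of genes. The member was MED13, whose loss was 1.51 ± 0.32 (adjusted p = 0.0452) smaller than in NONT. In EXOSC5-KO limma called 0 members, where 0.333% of genes were called, with 12 at an unadjusted p under 0.05 against 23.5% of genes, and MED13 stood at 1.10 ± 0.32 (adjusted p = 0.149).

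These counts turned on single libraries, for the members and for all genes alike. Without NONT untreated replicate 1, the lower of that pair, 20 members were called in NUP93-KO and 15 for EXOSC5-KO, where 51.2% and 38.5% of all genes were. Without NONT triptolide replicate 1 the counts were 3 and 1, where 18.0% and 2.97% of genes were called. The call of MED13 for NUP93-KO was lost without NONT untreated replicate 2 and without any one of the 4 NUP93-KO or 4 EXOSC5-KO libraries. MED26 had the largest difference in NUP93-KO at 2.52 ± 0.93 (adjusted p = 0.0793), and MED18 the largest in EXOSC5-KO at 2.03 ± 0.71 (adjusted p = 0.175), neither past the threshold and both resting on a few reads in treated NONT. MED12 differed by 1.13 ± 0.40 (adjusted p = 0.0741) for NUP93-KO and by −0.28 ± 0.40 (adjusted p = 0.619) for EXOSC5-KO, where its untreated level was the highest.

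Lists of genes whose products work beside the Mediator were set beside it, in NONT and relative to the same background. In NONT 90.0% of all genes fell, and the counts of these lists are set against that share. Among the subunits of RNA polymerase II 11 of 12 fell, with a median of −1.04, above the −1.62 of the median gene and the −2.18 of the Mediator. The one not called was POLR2A, the largest subunit, whose values were low and differed widely between replicates, at 4.32 and 43.0 untreated and 8.18 and 0 after triptolide in NONT (−2.34 ± 1.56, adjusted p = 0.163). The next lowest subunit in untreated NONT, POLR2I, read 491 and 711. The paper detects the POLR2A protein, Rpb1, in U2OS cells by immunoblot, so the values of this row are uncertain. The cause was not tested. Without POLR2A the median was −1.01. POLR2D stood apart at −2.82 ± 0.20. Of the general initiation factors 14 of 15 fell, all but GTF2H2 (−1.67 ± 0.84, adjusted p = 0.0688), with a median of −1.67, from −5.32 ± 0.55 for GTF2E1 to −0.80 ± 0.24 for GTF2H3. All 13 coactivator and cohesin genes fell (median −2.40), led by EP300, a histone acetyltransferase, at −4.59 ± 0.37.

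The other transcription kinases and cyclins had the deepest median of these lists, at −3.37 with 9 of 9 fallen, from −5.68 ± 0.47 for CDK7, the kinase of TFIIH, to −1.10 ± 0.23 for its cyclin CCNH. Of the elongation partners 9 of 10 tested fell, all but EAF2 (11.1 and 20.8 untreated and 8.22 and 6.14 treated), with a median of −2.69. In NUP93-KO the 5 medians were −0.28, −1.06, −1.46, −2.45 and −1.87 in the same order, and in EXOSC5-KO −0.54, −1.21, −1.88, −2.67 and −1.94. The paralogue MED12L, which is no member of the list, was low, with values of 24.8 and 39.9 in untreated NONT and 19.5 and 21.3 after triptolide, and its change of −0.60 ± 0.60 (adjusted p = 0.344) did not pass the threshold.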

How the data were processed

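Gene values were read from the table of spike-in-normalised signal that the authors deposited. The authors pseudoaligned the reads with kallisto 0.46.1 to the GRCh38 transcriptome with ERCC sequences, summarised them per gene, divided by DESeq2 size factors from the ERCC transcripts and kept protein-coding genes. This signal is not a read count: 21.6% to 30.6% of low values were whole multiples of 1 read within 0.02, so no count model was used. An error in cell count or spike-in volume moves all genes of a library.

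Values were analysed as log2(value + 1) with limma 3.58.1 in R 4.3.3 (6 group means, eBayes with trend, two-sided, Benjamini-Hochberg over 13811 genes with an untreated mean of at least 10). The method was tested on simulated data without a shared library offset, which cannot show how calls hold under the offsets seen here. The members, modules, motifs and related lists were chosen with earlier results of these data known, and the shares and ratios after seeing the members' values. All 32 members were named; values per library were given for the kinase module, MED14, MED17, MED1, MED26, MED15, and the most and least changed member of head, middle and tail with an untreated mean of at least 100 in NONT. Symbols, coordinates and UTRs came from GENCODE 44. Shares and ratios were tested by exact permutation of treatment within genotype. Alternatives covered pseudocount, filter, trend, 3 rescalings, replicate block, fewer groups and single libraries left out.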

Additional observations from a re-analysis of the deposited data

Results flagged for a closer look

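MED13 is listed here because the test of the difference itself passed the threshold: its response to triptolide in NUP93-KO minus that in NONT was 1.51 ± 0.32 (adjusted p = 0.0452) on the log2 scale by limma. All 4 pairings of single libraries in each genotype were falls, since MED13 read 2091 and 3184 untreated and 94.7 and 121 treated in NONT, and 2024 and 2018 untreated and 271 and 213 treated in NUP93-KO. Both treated NUP93-KO libraries lay above both treated NONT libraries. Over 22 alternatives the difference ran from 0.75 to 1.81 and the adjusted p from 0.00343 to 0.685. The median gene differed by 0.74 in the same contrast, and on the median-of-ratios scale MED13 differed by 0.77 ± 0.28 (adjusted p = 0.411). Groups of 2 libraries do not allow a test for single outlying libraries.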

How the results depend on the processing

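For the members' triptolide responses, direction and call depended mainly on the scale. The median-of-ratios scale puts the typical gene of each library near 0 by construction. Members that lost less than the typical gene therefore turn positive on it. Such signs describe loss relative to the typical gene and not loss per cell. The counts that follow cover 97 results, those responses and the called MED13 difference. Untreated comparisons and the other differences are not among them and are given below. Under the alternatives that kept the spike-in scale, 1799 of 1843 member results kept direction and side of the threshold, 24 lost and 20 gained a call, and 0 changed sign. On the median-of-ratios scale the median log2 fold change of the members moved to −0.54 for NONT, −0.51 for NUP93-KO and −0.68 for EXOSC5-KO, and with the same total per library to −0.85, −0.85 and −0.96, where 21 members were called in NONT. Scaling to mitochondrial mRNAs gave −1.71 for NUP93-KO and −1.85 for EXOSC5-KO. Members whose sign turned on the median-of-ratios scale were, in NONT, MED11 0.14, MED27 0.32, MED28 0.15, MED30 0.22, MED14 0.27, MED16 0.31, MED24 0.95, MED25 0.54, CDK19 0.62, CCNC 0.47; in NUP93-KO, MED11 0.11, MED27 0.11, MED28 0.56, MED14 0.30, MED24 0.70, MED25 0.37, CCNC 0.21; and in EXOSC5-KO, MED11 0.23, MED27 0.27, MED28 0.47, MED14 0.13, MED24 0.94, MED25 0.34, CDK19 0.50, CCNC 0.28. With totals equalised they were MED27 0.00476, MED24 0.63, MED25 0.22, CDK19 0.30, CCNC 0.15 for NONT, MED28 0.23, MED24 0.36, MED25 0.0357 for NUP93-KO and MED28 0.19, MED24 0.65, MED25 0.0523, CDK19 0.22 for EXOSC5-KO. The median gene of NONT stood at −0.01 on the first of these scales and at −0.32 on the second. The kinase share changed by −2.93 points without CCNC, an alternative chosen after seeing the data, as were all those for shares and ratios; its rise also lost its call without NUP93-KO untreated replicate 2, NUP93-KO triptolide replicate 1, MED10 or MED15, and the head's fall lost its call without CCNC.

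The gap of the median member to the median gene moved without the low-value filter, to −0.86, −0.71 and −0.91, and with a pseudocount of 5 to −0.73 for EXOSC5-KO. Without drug, EXOSC5-KO had 2 members called on the median-of-ratios scale, 2 with the same total and 3 on the mitochondrial scale (of all genes, 5.70%, 4.88% and 5.76%), where its median was −0.34. For the difference in response in NUP93-KO, 0 members were called on each of the 3 rescalings, without filter, without trend, with only the groups compared, and with the replicate block, against 2 with an untreated mean of at least 50, where 9.05% of genes were called. Its median was −0.00057, −0.0228 and 0.0846 on the median-of-ratios, same-total and mitochondrial scales, and that of EXOSC5-KO was 0.0215, 0.0472 and 0.138. A shift shared by the typical gene is removed by construction on the median-of-ratios scale. Higher calls on the median-of-ratios scale became 1 for NUP93-KO without trend, and 2 for EXOSC5-KO without filter, without trend and with the replicate block. The cause of the moves in these counts was not tested.

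With single libraries left out, calls ran from 24 to 29 after triptolide in NUP93-KO, from 27 to 31 for EXOSC5-KO, and stayed at 32 for NONT. They ran from 0 to 1 for EXOSC5-KO without drug, and for the differences from 0 to 20 (NUP93-KO) and 0 to 15 (EXOSC5-KO). Higher calls on the median-of-ratios scale ran from 3 to 5, 1 to 3 and 1 to 3 for NONT, NUP93-KO and EXOSC5-KO. Medians ran from −2.45 to −1.94, −1.50 to −1.40 and −1.85 to −1.60, and gaps to the median gene from −0.74 to −0.48, −0.55 to −0.47 and −0.71 to −0.57. Gene by gene, libraries with the same replicate number did not deviate together (r = −0.05 to 0.04 over 15 pairs of groups). A correlation over genes leaves out any offset common to all genes. It therefore cannot show whether such libraries shared a culture or a preparation. With the replicate block the counts were 32, 27 and 28 for the 3 responses, and MED13 had an adjusted p of 0.0547. Depth limits MED26 and MED18, which were left with a few reads after triptolide in NONT, and MED26 also in EXOSC5-KO.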
